A study of Arabidopsis thaliana with 18 samples.

Results

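The comparison described here is the response of dark-grown jmj17-1 seedlings of Arabidopsis thaliana to 8 h of light. It rests on 5 of the 18 Affymetrix ATH1 arrays of the study, chosen by their titles: 2 arrays of jmj17-1 seedlings after 4 days of dark and 8 h of light, and 3 arrays of jmj17-1 seedlings harvested straight from 4 days of dark. All seedlings were in the Col-0 background, were grown on 1/2MS without sucrose and were harvested whole. The other 13 arrays held jmj17-1 after 2 or 4 h of light (2 each) and WT, the wild type, in the dark (3) or after 2, 4 or 8 h of light (2 each). No sample was kept in the dark for those further 8 h. Light, added age and any difference in time of harvest therefore cannot be told apart in the differences below. The labels name the mutant line by its allele alone, and nothing in the sources used here says whether replicates came from separate plates or sowings. The p-values therefore measure the spread between these arrays, which may be technical, and the small number of arrays limits the precision.

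Seedlings that germinate in the dark elongate their hypocotyl, keep their cotyledons folded and hold etioplasts in place of chloroplasts. In the light, phytochromes and cryptochromes stop the COP1 and SPA proteins from degrading transcription factors such as HY5, and the PIF factors that maintain dark growth are removed. Chlorophyll, the photosystems and the enzymes of carbon fixation are then built together, since free chlorophyll precursors are phototoxic. JMJ17 encodes a demethylase of histone H3 lysine 4, a residue whose methylation marks transcribed genes. JMJ17 had no probe set of 1 gene in the table used and is not analysed here, so the genotype of the arrays was taken from the labels.

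Values are log2 intensities summarized by RMA (robust multi-array average), and a difference is the 8 h mean minus the dark mean on that scale, given with its SE. A gene was said to rise or fall at a Benjamini-Hochberg adjusted p under 0.05 in limma over all 6847 probe sets of the deposited table. The authors had selected those 6847 of the array's 22810 probe sets by a moderated test whose comparison the file does not state. Its fold change columns are headed jmj17-1 dark against WT dark, and 15.9% of the probe sets kept had an unadjusted p under 0.05 between those groups in limma. Every probe set kept had an unadjusted p of at most 0.0237 in limma between jmj17-1 after 2 h of light and jmj17-1 in the dark, against 9.81% of the others with a p under 0.05. The selection thus went with the same dark arrays used here, and the percentages below describe that selected table. Levels of different probe sets were not compared with each other, except to mark as dim those with a group mean in the lowest 5% of the table. In whole seedlings, fewer cells of a type and less RNA per cell cannot be told apart.

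One dark array stood apart. Dark replicate 2 correlated at r = 0.985 with each of the other dark replicates, which correlated with each other at 0.995, and the 8 h replicates correlated at 0.996. It was higher than both other dark arrays by at least 1 log2 unit in 89 probe sets, of which 82 rose at 8 h, and lower than both by that much in 8. By any amount, it was the highest dark array in 2748 of the 6847 probe sets. On this array the median level of the 13 measured antenna genes was 10.85, against 9.44 and 9.35 on dark replicates 1 and 3, and that of the 15 measured chlorophyll biosynthesis genes was 9.39, against 8.17 and 8.10. On the 8 h arrays the same medians were 12.37 and 12.41 for the antenna and 9.60 and 9.67 for chlorophyll biosynthesis. By these 2 medians dark replicate 2 lay between the other dark arrays and the 8 h arrays. Its part in the results was not tested as a cause, and results are given with and without it.

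**Figure D1:**
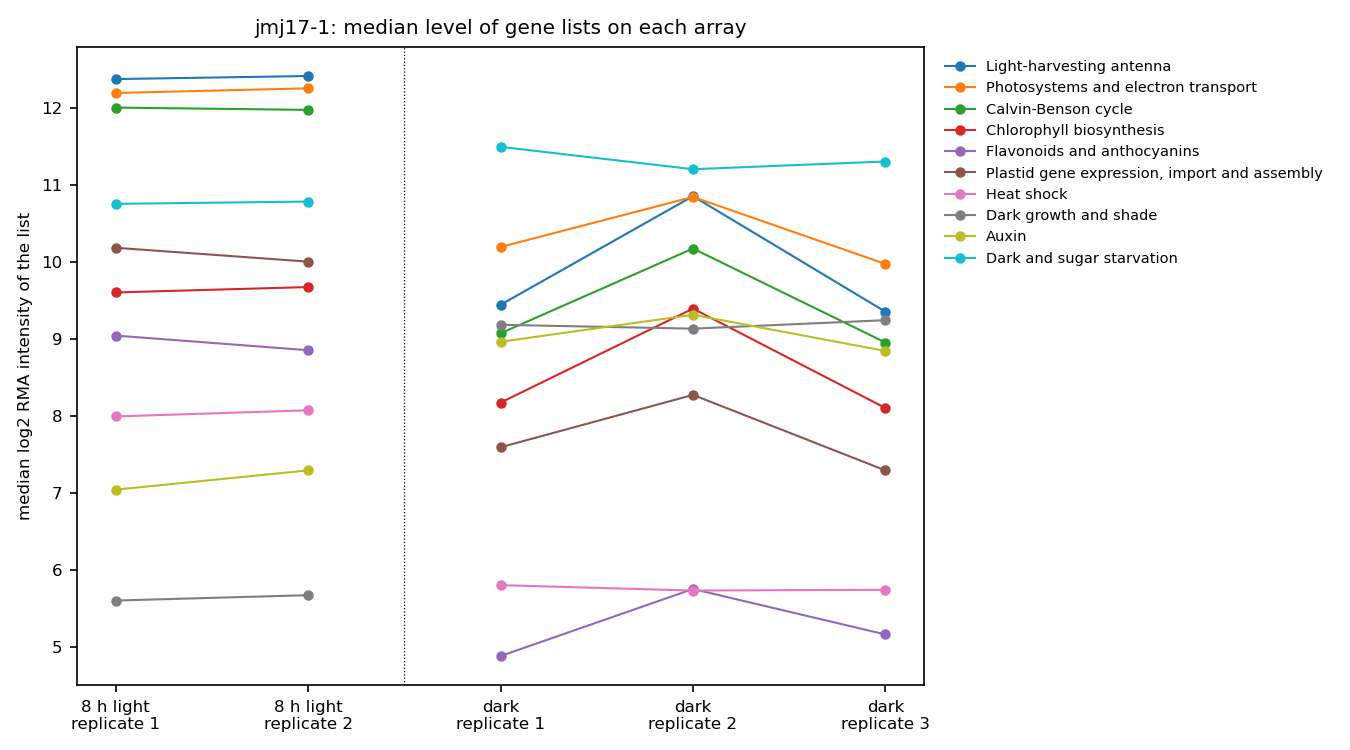
Median log2 RMA intensity of the measured genes of 10 lists (vertical axis) on each jmj17-1 array, with the 2 arrays of 8 h light left of the dotted line and the 3 dark arrays right of it. Each colour is 1 list, and lines join arrays of a group for the eye only. The antenna median is 10.85 on dark replicate 2, against 9.44 and 9.35 on the other dark arrays, while the medians of the heat shock and the dark growth lists are alike on all 3.

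After 8 h of light 2130 probe sets had risen and 3269 had fallen in jmj17-1, which is 31.1% and 47.7% of the table and 78.9% of it in all. Without dark replicate 2 the counts were 2108 (30.8%) and 3263 (47.7%), together 78.4%, and 5209 of the 5399 calls were made again in the same direction. The rises were larger than the falls, with a median difference of 0.96 among risen and -0.64 among fallen probe sets. At 2-fold or more, 1015 rose (14.8%) and 801 fell (11.7%). Differences of at least 8-fold were seen in 116 rises and 56 falls. A second deposited table covers the whole array, and there 19.8% of the 22810 probe sets rose and 25.5% fell, 45.4% in all, and 32.2% of the 15963 outside the first table were called. Both 8 h arrays lay above all 3 dark arrays in 2267 probe sets (33.1%) and below them in 3490 (51.0%). The median difference over the whole table was -0.19, and the differences of gene lists below are read beside it. With nearly 4 in 5 probe sets called, the size and direction of a list's differences say more than its count of calls.

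Of the 741 genes of 31 functional lists, 430 were measured by a probe set of 1 locus. The highest medians were those of flavonoids, the Calvin-Benson cycle, the antenna and heat shock, and the lowest those of dark growth, auxin and the cell wall. Without dark replicate 2, the median of heat shock (2.14) was below those of early light-induced and plastid antioxidant genes (2.56) and chlorophyll biosynthesis (2.23).

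**Figure D2:**
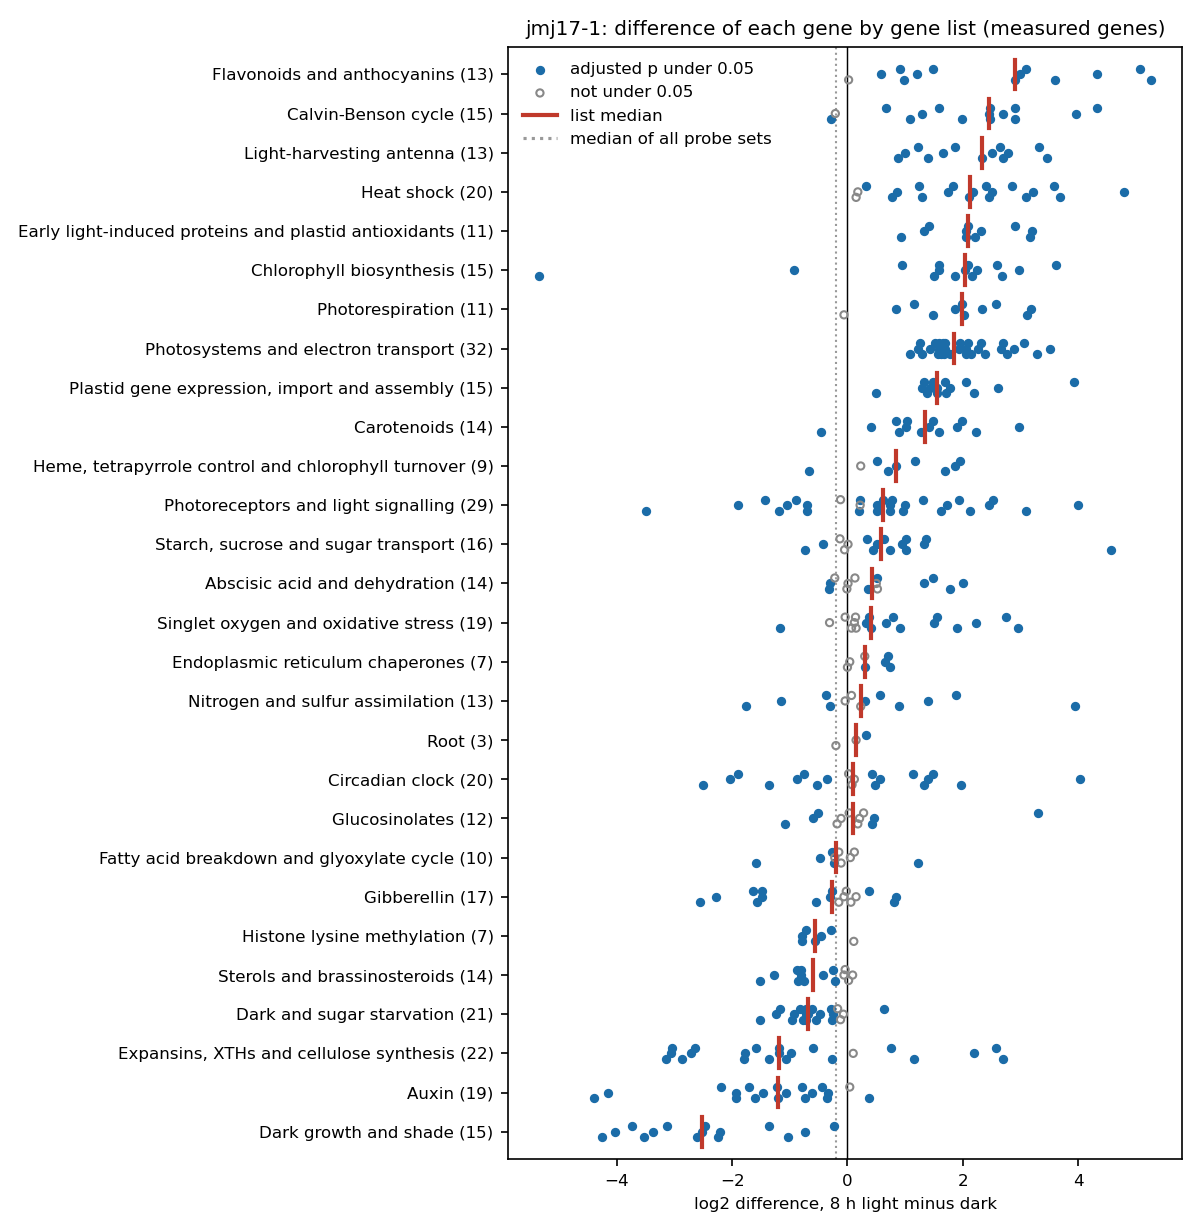
Difference of each measured gene between 8 h light and dark in jmj17-1 (horizontal axis, log2 units), 1 row per gene list with its number of measured genes, ordered by median. Filled points passed an adjusted p of 0.05, open points did not, red bars are list medians and the dotted line is the median of all probe sets, -0.19. Flavonoid genes have the highest median, 2.90, and dark growth and shade genes the lowest, -2.53.

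The 15 largest rises among named genes ran between 4.01 and 5.78 log2 units. CDSP32 (AT1G76080), a thioredoxin-like protein of the chloroplast stroma, had 11.64 and 11.72 on the 8 h arrays, against 5.16, 7.09 and 5.46 on the dark arrays. The groups lay far apart, and the difference was 5.78 ± 0.37 (54.8-fold, adjusted p = 1.61e-09), or 6.37 without dark replicate 2. MSRB6 (AT4G04840), a methionine sulfoxide reductase, had 10.83 and 10.85 at 8 h, against 5.11, 5.78 and 5.38 in the dark, a difference of 5.42 ± 0.15. FBA5 (AT4G26530), a fructose-bisphosphate aldolase, had 9.66 and 9.86 at 8 h, against 4.6, 4.54 and 3.86 in the dark, a difference of 5.43 ± 0.21.

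The other large rises covered several parts of the chloroplast and of light-dependent metabolism. FADA (AT4G27030), a plastid fatty acid desaturase, rose by 5.18 ± 0.35, with 9.19 and 9.11 at 8 h against 3.22, 5.08 and 3.60 in the dark. RbcX1 (AT4G04330), an assembly chaperone of Rubisco, rose by 4.89 ± 0.11, and NDA1 (AT1G07180), an alternative NAD(P)H dehydrogenase of mitochondria, by 4.85 ± 0.11. BAM3 (AT4G17090), the chloroplast beta-amylase that degrades starch, had 8.11 and 7.84 at 8 h, against 3.46, 3.58 and 3.17 in the dark, and rose by 4.57 ± 0.19. GPX7 (AT4G31870), a glutathione peroxidase, rose by 4.01 ± 0.13 and THI2.2 (AT5G36910), a thionin, by 4.76 ± 0.21. The rest of the 15, CHS, F3H, FLS1, FBA1, HSP17.6A and ELF4, are described with their lists. In the dark the mean of FADA, RbcX1, NDA1, BAM3 and GPX7 was among the dimmest 5% of probe sets, so the exact size of these differences is not established. Dark replicate 2 was the highest dark array for 11 of the 15, beside 2748 of all 6847 probe sets.

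The 15 largest falls ran between -3.49 and -5.35. PORA (AT5G54190), the protochlorophyllide oxidoreductase of etioplasts, had the largest of them and is described with chlorophyll biosynthesis. SNRK2.5 (AT5G63650), a protein kinase, had 4.54 and 4.64 at 8 h, against 9.19, 9.87 and 9.63 in the dark, a difference of -4.97 ± 0.17. TUB1 (AT1G75780), a beta-tubulin gene, had 4.44 and 4.25 at 8 h, against 8.67, 9.23 and 8.94 in the dark, a difference of -4.60 ± 0.15. AGP13 (AT4G26320), an arabinogalactan peptide of the cell surface, differed by -4.41 ± 0.17. Groups that do not overlap were a condition of choosing these genes.

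Of the rest of the falls, IAA6, IAA29, GH3.3, IAA19, ATHB2, XTH15 and FHL belong to the lists below. GH9B13 (AT4G02290), an endoglucanase gene, differed by -4.06 ± 0.14. HB-3 (AT5G15150), a homeodomain gene, differed by -3.90 ± 0.14, ARP1 (AT3G54770), an RNA-binding protein gene, by -3.79 ± 0.15 and scpl40 (AT3G63470), a serine carboxypeptidase-like gene, by -3.54 ± 0.10. HB-3 and scpl40 were among the dimmest 5% of probe sets at 8 h. A call without dark replicate 2 was a condition of choosing the 15 falls. In that fit PORA was at -4.89 and SNRK2.5 at -4.82.

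**Figure D3:**
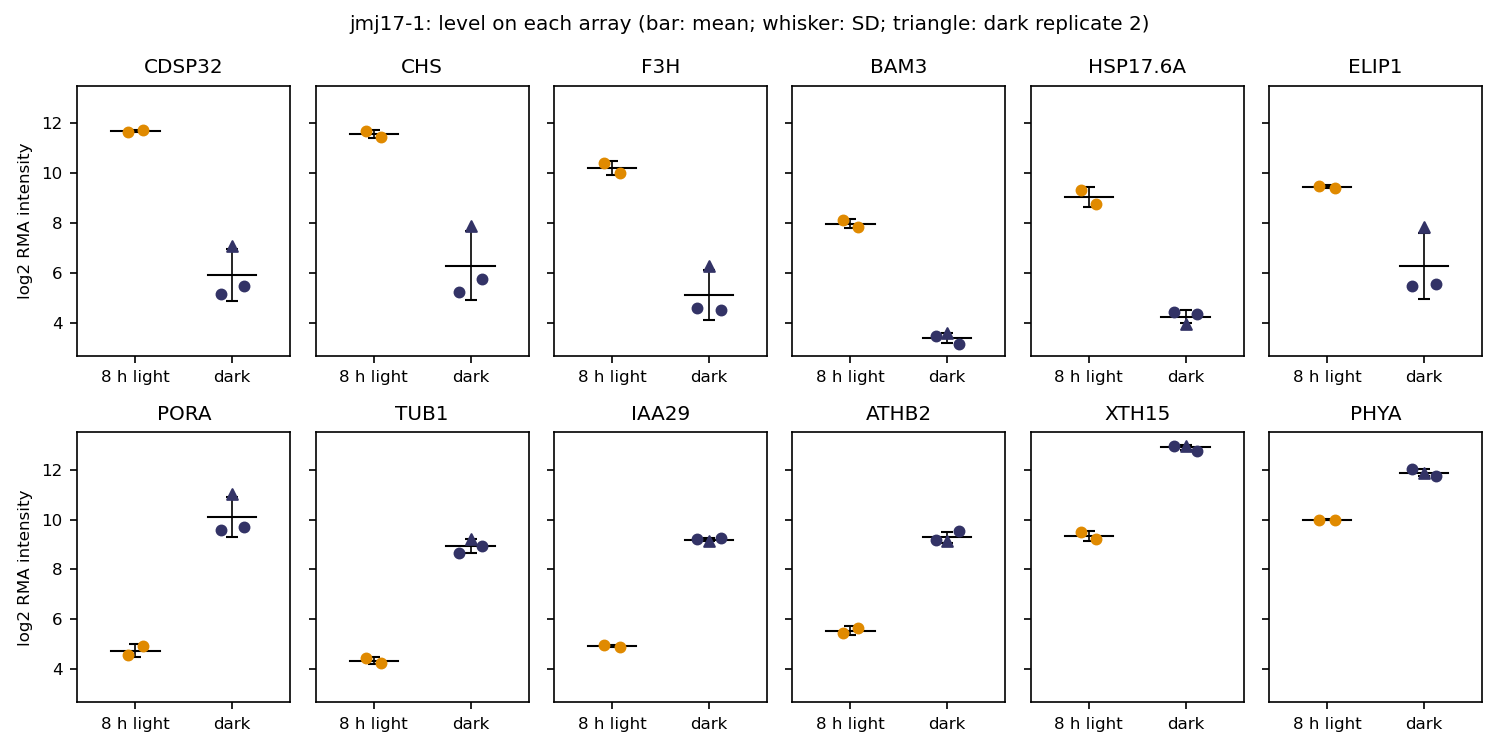
Log2 RMA intensity (vertical axis) of 12 genes on each jmj17-1 array, 8 h light left and dark right in every panel, with the group mean as a bar and its SD as a whisker (n = 2 and n = 3). The triangle is dark replicate 2. The groups do not overlap in any panel, which was a condition of choice for all but ELIP1 and PHYA. For CHS the triangle at 7.87 lies above the other dark arrays at 5.24 and 5.76.

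The earlier light times placed these changes in order. Of the 15 largest rises, 11 had passed 50% of their 8 h difference by 2 h of light, and so had 11 of the 15 largest falls. In the dark and after 2, 4 and 8 h, CDSP32 averaged 5.90, 10.61, 11 and 11.68, with most of the difference reached by 2 h. RbcX1 followed late instead, with 3.69, 4.3, 6.56 and 8.58, and TUB1 fell late, with 8.95, 7.90, 6.41 and 4.35. The mean was highest at 8 h for 13 of the 15 rises and lowest at 8 h for all 15 falls. These times share the dark arrays with the 8 h comparison. Since every probe set of the table already differed between 2 h and dark, genes without a difference at 2 h are not in it, and the order is given as a description of this table alone.

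Chlorophyll biosynthesis divided into a large rising group and 2 falling oxidoreductase genes. Of 15 measured genes of 28 listed, 13 rose and 2 fell, with and without dark replicate 2, and the median difference was 2.04 (2.23 without that array). DVR (AT5G18660), the divinyl reductase, had 8.38 and 8.41 at 8 h, against 4.00, 6.13 and 4.23 in the dark, and rose by 3.61 ± 0.41. CHLH (AT5G13630), the large subunit of magnesium chelatase, had 11.99 and 11.97 at 8 h, against 8.53, 10.08 and 8.38 in the dark, and rose by 2.98 ± 0.33. The groups did not overlap, yet dark replicate 2 lay well above the other dark arrays in both genes, and without it the differences were 4.28 for DVR and 3.52 for CHLH. HEMA1 (AT1G58290), the glutamyl-tRNA reductase that begins the pathway, rose by 2.04 ± 0.13, GUN4, an activator of magnesium chelatase, by 2.16 ± 0.31, CHLI1 by 2.59 ± 0.27 and CAO, the chlorophyllide a oxygenase, by 1.87 ± 0.14.

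The 3 protochlorophyllide oxidoreductases, which carry out the light-dependent step, went separate ways. PORA had 4.57 and 4.93 at 8 h, against 9.57, 11.03 and 9.71 in the dark, a difference of -5.35 ± 0.30 (adjusted p = 3.94e-10). PORB (AT4G27440) had 9.70 and 9.90 at 8 h, against 10.38, 11.49 and 10.33 in the dark, a difference of -0.93 ± 0.25 that was -0.55 without dark replicate 2 and called in both fits. PORC (AT1G03630) had 9.14 and 9.19 at 8 h, against 5.57, 7.86 and 6.01 in the dark, and rose by 2.68 ± 0.42, or 3.37 without that array. All 3 were highest on dark replicate 2 among the dark arrays. Over the dark, 2, 4 and 8 h means PORA declined throughout (10.10, 6.78, 5.78 and 4.75), while PORB was lowest at 2 h (10.73, 8.91, 10.01 and 9.80).

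Genes around the pathway moved less. Of 9 measured genes of heme, tetrapyrrole control and chlorophyll turnover 7 rose and 1 fell, with a median of 0.85 (1.09 without dark replicate 2). FC2, a plastid ferrochelatase, rose by 1.96 ± 0.16, FC1 by 0.70 ± 0.09, RCCR, the red chlorophyll catabolite reductase, by 1.87 ± 0.07 and GUN1 by 1.18 ± 0.11. HCAR, which reduces hydroxymethyl chlorophyll, fell by 0.67 on the log2 scale. FLU, the negative regulator of the pathway in the dark, differed by 0.23 ± 0.13 (adjusted p = 0.106), and by 0.37 (adjusted p = 0.00337) without dark replicate 2.

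**Figure D4:**
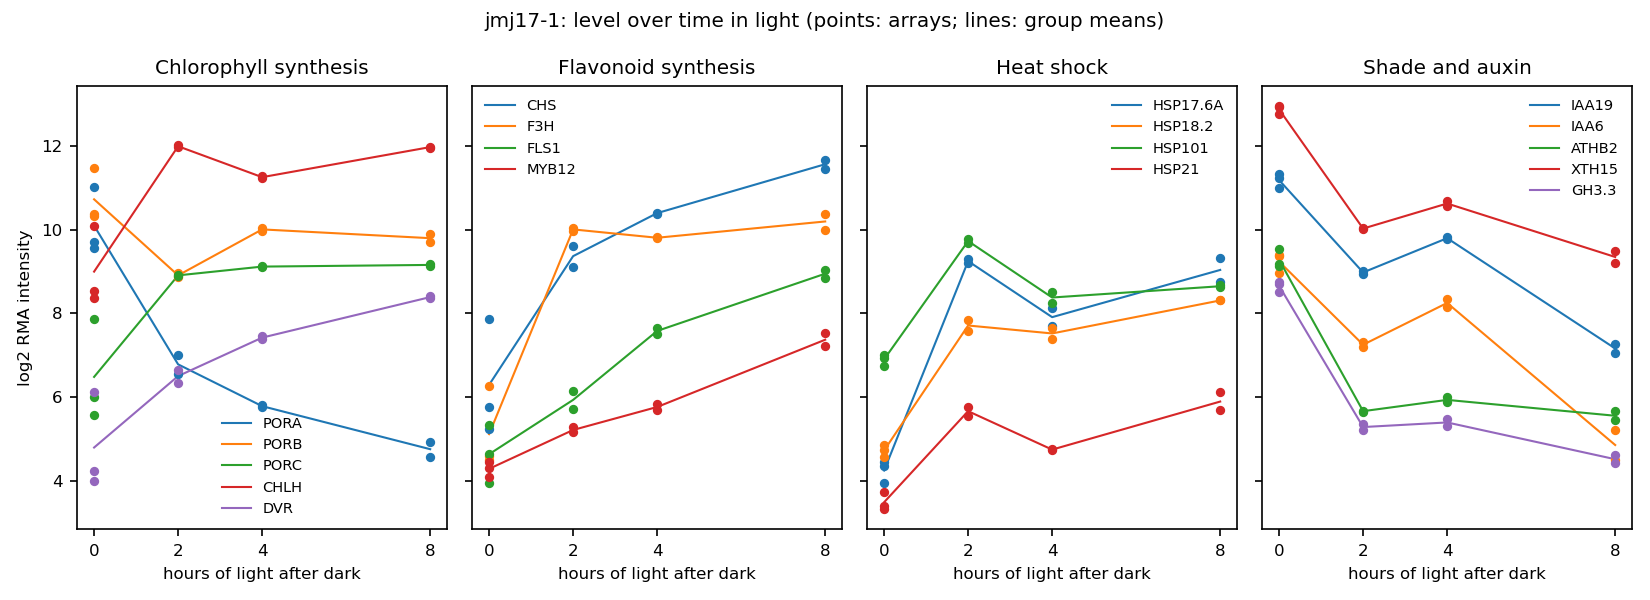
Log2 RMA intensity (vertical axis) of 18 genes in jmj17-1 in the dark (0 h) and after 2, 4 and 8 h of light (horizontal axis), with points for arrays and lines through group means. PORA falls to 4.75 at 8 h while DVR rises, FLS1 and MYB12 rise steadily, the heat shock genes are already high at 2 h, and IAA19 and IAA6 are higher at 4 h than at 2 h before their lowest level at 8 h.

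Nuclear genes of the photosystems and their antenna rose without exception among those measured. All 13 measured antenna genes of 21 listed rose, with a median of 2.34, and all 32 measured genes of photosystem subunits and electron transport of 37 listed rose, each by more than 2-fold, with a median of 1.85. Without dark replicate 2 the medians were 2.48 and 2.12. LHCB2.3 (AT3G27690), a light-harvesting protein of photosystem II, had 11.30 and 11.42 at 8 h, against 7.59, 8.67 and 7.44 in the dark, and rose by 3.46 ± 0.25. LHCA1, of photosystem I, had 12.68 and 12.79 at 8 h, against 9.34, 9.97 and 8.95 in the dark, and rose by 3.32 ± 0.19. LHCB4.2 and LHCB4.1 changed least, by 0.88 ± 0.11 and 0.99 ± 0.11. Among photosystem genes the largest rises were PSB28 (3.52 ± 0.38), PSBO2 of the oxygen-evolving complex (3.28 ± 0.21) and PSAH2 of photosystem I (3.07 ± 0.33). PSBS, the sensor of energy-dependent quenching, rose by 2.76 ± 0.28 and PGRL1A, of cyclic electron flow, by 2.89 ± 0.16. Dark replicate 2 was the highest dark array for 32 of the 32 photosystem genes and 12 of the 13 antenna genes. Over all 6847 probe sets it was the highest in 2748. Antenna genes define green seedling tissue, and for each of the 13 both 8 h arrays lay above all 3 dark arrays. That held for 33.1% of all probe sets.

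Carbon fixation followed with similar sizes. Of 15 measured genes of the Calvin-Benson cycle 13 rose and 1 fell, with a median of 2.45 (2.80 without dark replicate 2). FBA1 (AT2G21330), a plastid aldolase, had 11.53 and 11.35 at 8 h, against 6.85, 8.18 and 6.35 in the dark, and rose by 4.32 ± 0.34. CP12-2 (AT3G62410), which couples GAPDH and phosphoribulokinase, had 11.49 and 11.34 at 8 h, against 7.39, 7.59 and 7.36 in the dark, and rose by 3.97 ± 0.11. For CP12-2 the dark arrays lay close together, and its difference without dark replicate 2 was 4.04. Its paralogue CP12-3 differed by -0.21 ± 0.15 (adjusted p = 0.214), and by -0.42 without that array (adjusted p = 0.000902). FBA3 fell by 0.28 on the log2 scale. RCA, Rubisco activase, rose by 2.45 ± 0.22, GAPB by 2.91 ± 0.25 and SBPASE by 2.48 ± 0.23.

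Photorespiration, which recycles the product of oxygenation by Rubisco, rose in 10 of 11 measured genes, with a median of 1.98. GLDP1 of the glycine decarboxylase rose by 3.18 ± 0.19, SHM1, the partner hydroxymethyltransferase, by 3.11 ± 0.23, and the peroxisomal GGAT1 and CAT2 by 2.33 ± 0.15 and 0.84 ± 0.11. Starch and sugar genes were more mixed. Of 16 measured, 11 rose and 2 fell, with a median of 0.58. Beside BAM3, the starch synthases SS1 and SS4 rose by 1.37 ± 0.11 and 1.33 ± 0.10 and the triose phosphate translocator TPT by 1.02 ± 0.12, while BAM4 fell by 0.73 and the sucrose transporter SUC2 by 0.43 on the log2 scale.

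The machinery that expresses and assembles the plastid proteins rose in all 15 measured genes of 35 listed, with a median of 1.56 (1.79 without dark replicate 2). SIG5 (AT5G24120), a sigma factor of the plastid polymerase, had 8.71 and 8.67 at 8 h, against 4.86, 4.65 and 4.77 in the dark, and rose by 3.93 ± 0.10. Dark replicate 2 was the highest dark array for 14 of the 15, SIG5 being the exception, beside 2748 of all 6847 probe sets. The other 4 measured sigma factors, SIG1, SIG2, SIG3 and SIG6, rose by between 1.33 and 1.56. PTAC16 rose by 2.61 ± 0.23, and the thylakoid protease genes FTSH1, FTSH2, FTSH5 and FTSH8 by between 1.69 and 2.2. Of 28 plastid ribosomal protein genes 2 were measured, and RPL10 and RPL27 rose by 1.84 and 1.68.

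Protective genes rose together with the photosynthetic ones. All 11 measured early light-induced and plastid antioxidant genes rose, with a median of 2.09 (2.56 without dark replicate 2). ELIP1 (AT3G22840), which binds pigments under excess light, had 9.49 and 9.40 at 8 h, against 5.47, 7.82 and 5.54 in the dark, a difference of 3.16 ± 0.50, or 3.94 without that array. Its 2 h mean was 12.03, so the 8 h level was well below the early peak. ELIP2 had 9.35 and 9.13 at 8 h, against 6.18, 8.86 and 6.54 in the dark, and differed by 2.05 ± 0.56 (adjusted p = 0.00363), or 2.88 without dark replicate 2, with a 2 h mean of 12.55. The 8 h arrays of ELIP2 were only slightly above dark replicate 2. PRXQ, a plastid peroxiredoxin, rose by 3.20 ± 0.35, OHP1 by 2.90 ± 0.22 and OHP2 by 2.05 ± 0.08.

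Carotenoid genes rose in 13 of 14 measured, with a median of 1.35 (1.5 without dark replicate 2). LUT5, a carotene hydroxylase of lutein synthesis, rose by 2.97 ± 0.23, ZEP and VDE of the xanthophyll cycle by 2.23 ± 0.11 and 1.99 ± 0.13, and PSY, phytoene synthase, by 1.90 ± 0.19. IPI1, an isopentenyl diphosphate isomerase, fell by 0.45 on the log2 scale.

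The flavonoid list had the highest median of all, 2.90 over 13 measured genes, of which 12 rose. CHS (AT5G13930), chalcone synthase, the first committed enzyme of the pathway, had 11.68 and 11.45 at 8 h, against 5.24, 7.87 and 5.76 in the dark. The groups stayed far apart even at dark replicate 2, and the difference was 5.27 ± 0.51 (adjusted p = 1.82e-07), or 6.06 without that array, which is 38.7-fold or 66.9-fold. F3H (AT3G51240), the flavanone hydroxylase, had 10.39 and 10 at 8 h, against 4.58, 6.27 and 4.50 in the dark, and rose by 5.08 ± 0.42. FLS1 (AT5G08640), flavonol synthase, had 9.04 and 8.85 at 8 h, against 3.93, 5.32 and 4.64 in the dark, and rose by 4.32 ± 0.29. CHIL, which assists chalcone synthase, and UGT78D2, a flavonoid glucosyltransferase, rose by 3.60 and 2.90. MYB12, an activator of flavonol genes, rose by 3.09 ± 0.13 and was not raised on dark replicate 2 (4.09, against 4.45 and 4.31). The general phenylpropanoid genes PAL1, C4H and PAL2 rose by 1.2, 0.98 and 0.91.

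Light signalling genes were divided. Of 29 measured 19 rose and 8 fell (18 and 8 without dark replicate 2), with a median of 0.62. PHYA (AT1G09570), the phytochrome of etiolated seedlings, had 9.97 and 10 at 8 h, against 12.02, 11.86 and 11.73 in the dark, and fell by 1.89 on the log2 scale (SE 0.11). FHL (AT5G02200), which carries phytochrome A into the nucleus, had 4.28 and 4.08 at 8 h, against 7.60, 7.65 and 7.76 in the dark, a difference of -3.49 ± 0.10. PHYC, PHOT1 and PIF3 also fell, by 0.70, 1.19 and 0.70 on the log2 scale, whereas PHYE, CRY3, PHOT2 and COP1 rose by 0.62, 2.12, 1.31 and 0.73.

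The largest rises of this list included B-box factors and the UV-B pathway. BBX25 (AT2G31380) had 8.94 and 9.18 at 8 h, against 5.10, 5.16 and 4.97 in the dark, and rose by 3.99 ± 0.12. RUP2 (AT5G23730), a repressor of the UV-B receptor, had 9.66 and 9.55 at 8 h, against 6.55, 6.38 and 6.59 in the dark, and rose by 3.1 ± 0.10, and BBX22 rose by 2.53 ± 0.11. In these genes dark replicate 2 did not stand apart. HYH, the homologue of HY5, had 7.22 and 7.54 at 8 h, against 4.58, 5.99 and 4.21 in the dark, and rose by 2.45 ± 0.36. HY5 itself had 8.21 and 7.97 at 8 h, against 7.91, 8.06 and 7.63 in the dark. Its groups overlapped, and the difference of 0.22 ± 0.14 did not pass (adjusted p = 0.169). Its 2 h mean was 9.69. SPA1, which acts with COP1, rose by 1.63 ± 0.08, while BBX20 and BBX21 fell by 1.43 and 0.90 on the log2 scale.

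Genes of dark growth and shade avoidance all fell. The 15 measured of 17 listed had a median of -2.53 (-2.46 without dark replicate 2). IAA29 (AT4G32280), an auxin response gene under control of the PIF factors, had 4.97 and 4.90 at 8 h, against 9.20, 9.15 and 9.24 in the dark, a difference of -4.26 ± 0.13. ATHB2 (AT4G16780), the classical shade marker, had 5.44 and 5.67 at 8 h, against 9.18, 9.13 and 9.54 in the dark, a difference of -3.73 ± 0.11. XTH15 (AT4G14130), a xyloglucan-modifying enzyme, had 9.49 and 9.20 at 8 h, against 12.93, 12.96 and 12.76 in the dark, a difference of -3.53 ± 0.12. The 3 dark arrays lay close together for these genes, dark replicate 2 included. PRE1, YUC8, which makes auxin, and HLS1, which forms the apical hook, differed by -3.38, -2.47 and -2.25.

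Auxin genes fell in 17 of 19 measured, with a median of -1.21 (-1.10 without dark replicate 2). IAA6 had 5.22 and 4.49 at 8 h, against 8.96, 9.37 and 9.39 in the dark, a difference of -4.39 ± 0.18. GH3.3, which conjugates auxin to amino acids, had 4.6 and 4.41 at 8 h, against 8.71, 8.74 and 8.52 in the dark, a difference of -4.15 ± 0.15. GH3.5, IAA3 and the biosynthetic TAA1 differed by -2.19, -1.93 and -1.93, the carriers LAX3 and AUX1 by -1.21 and -0.74 and the receptor TIR1 by -0.44. ARF8 was the 1 member that rose, by 0.37 ± 0.12.

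Other growth hormones shifted less. Of 17 measured gibberellin genes 9 fell and 3 rose (7 and 3 without dark replicate 2), with a median of -0.27. That is near the -0.19 of all probe sets, of which 47.7% fell and 31.1% rose. GA3OX1 and GA20OX1, of the last steps of synthesis, differed by -2.56 ± 0.14 and -2.28 ± 0.19, and the repressors GAI and RGL1 by -1.64 and -1.48, while GA20OX2 and GA3OX2 rose by 0.84 and 0.80. Sterol and brassinosteroid genes fell in 10 of 14, with a median of -0.59, led by DWF4 (-1.52 ± 0.10) and CPD (-1.28 ± 0.11). Both encode enzymes of brassinosteroid synthesis.

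Cell wall genes fell in 16 of 22 measured and rose in 5, with a median of -1.18. XTH8, EXPB1 and EXLA2 differed by -3.15, -3.06 and -3.04. The 5 that rose were XTH32 (2.69 ± 0.42), PHI-1 (2.57 ± 0.10), EXPA1 (2.19 ± 0.15), XTH22 (1.16 ± 0.10) and EXPA10 (0.75 ± 0.15). XTH32 had 8.5 and 8.60 at 8 h, against 4.92, 7.21 and 5.46 in the dark, and its difference was 3.36 without dark replicate 2. Expansin and xyloglucan-modifying genes thus appeared in both directions.

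Clock genes moved in both directions. Of 20 measured 9 rose and 8 fell, with a median of 0.10. ELF4 (AT2G40080), of the evening complex, had 9.38 and 9.38 at 8 h, against 5.62, 5.11 and 5.32 in the dark, and rose by 4.03 ± 0.14. LHY (AT1G01060), a morning gene, had 5.67 and 5.74 at 8 h, against 8.14, 8.22 and 8.27 in the dark, a difference of -2.51 ± 0.09, and its partner CCA1 differed by -1.90 ± 0.16. Both morning genes were higher at 2 h than in the dark, LHY with means of 8.21, 9.46, 5.32 and 5.70 in the dark and after 2, 4 and 8 h. PRR5, GI and TOC1, which are expressed later in the day, rose by 1.97, 1.32 and 0.56. Clock phase differs between harvests at different hours, so light and time of harvest cannot be told apart here.

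Genes of sugar starvation in the dark fell in 17 of 21 measured, with a median of -0.69. BCAT2 and MCCB, which degrade branched-chain amino acids, differed by -1.52 ± 0.12 and -0.96 ± 0.09, DIN2 by -1.17, ASN1 by -0.71 and SEN1 by -0.69. For ASN1 and SEN1 the 2 h means, 10.57 and 10.99, were below the 8 h means of 11.68 and 12.27. In nitrogen and sulfur assimilation 6 of 13 rose and 4 fell. ASN2, the asparagine synthetase expressed in light, had 9.36 and 9.26 at 8 h, against 5.07, 5.98 and 5.03 in the dark, and rose by 3.95 ± 0.23, opposite to ASN1. NIA2 and NIR1, of nitrate reduction, rose by 1.89 and 1.39, and the nitrate transporter NRT1.1 fell by 1.76 on the log2 scale. Of 10 measured genes of fatty acid breakdown 4 fell and 1 rose (6 and 1 without dark replicate 2). Their median was -0.19, the same as that of all probe sets, of which 47.7% fell. PCK1, of gluconeogenesis from seed oil, had the lowest difference among them, -1.58 ± 0.10.

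Heat shock genes had the highest median of the stress lists. Of 20 measured 18 rose and 0 fell, with a median of 2.13 (2.14 without dark replicate 2). HSP17.6A (AT5G12030), a cytosolic small heat shock protein, had 9.33 and 8.76 at 8 h, against 4.44, 3.95 and 4.34 in the dark, and rose by 4.80 ± 0.20. HSP17.6C, HSP18.2 and HSP17.6II rose by 3.68, 3.59 and 3.22, the chaperones HSP70B, HSP90.1 and HSP101 by 3.09, 2.51 and 1.75, and the regulator HSFA2, dim in the dark, by 1.24. Dark replicate 2 was the highest dark array for 4 of the 20, beside 2748 of all 6847 probe sets. HSFB2A did not pass (0.18 ± 0.09, adjusted p = 0.0897). HSP101 had a 2 h mean of 9.73, above its 8 h mean of 8.65.

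Other stress lists gave smaller medians. Among genes of singlet oxygen and oxidative stress 12 of 19 rose and 1 fell, with a median of 0.41. UPOX, CYP81D8 and AOX1A, the alternative oxidase, rose by 2.96, 2.75 and 2.23, ZAT10 and ZAT12 by 1.90 and 1.5, and WRKY40 differed by 0.15 ± 0.11 (adjusted p = 0.243). Genes of abscisic acid and dehydration rose in 6 of 14 and fell in 2, with a median of 0.43 (0.23 without dark replicate 2), and RD29A and RD22 rose by 2.01 ± 0.25 and 1.78 ± 0.26, or by 1.70 and 1.55 without dark replicate 2, their lowest dark array. Endoplasmic reticulum chaperones rose in 4 of 7, by at most 0.74. Glucosinolate genes rose in 3 and fell in 3 of 12, with CYP81F4 at 3.3 ± 0.20 and MYB51 at -1.08 ± 0.13.

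Of 30 genes that write or remove histone lysine methylation 7 were measured, and 6 fell, by less than 2-fold, with a median of -0.57. Over all probe sets 47.7% fell and the median was -0.19. The demethylase genes JMJ13, JMJ30 and JMJ27 differed by -0.78 ± 0.10, -0.72 ± 0.10 and -0.45 ± 0.10, and the methyltransferase genes SDG26, ATXR7 and ATX1 by -0.78 ± 0.09, -0.57 ± 0.10 and -0.29 ± 0.10. JMJ13 had 6.02 and 6.28 at 8 h, against 6.90, 6.94 and 6.96 in the dark, so its groups did not overlap. Both 8 h arrays lay below all dark arrays in 51.0% of all probe sets.

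Markers of other tissues or states were few in the table. Of 13 root genes 3 were measured, with SCR at 0.32 ± 0.07 (adjusted p = 0.00112), SHR at -0.20 ± 0.10 and CASP1 at 0.15 ± 0.08, and the last 2 did not pass. Of 13 seed genes only OLEO2 was measured, with 6.52 and 6.11 at 8 h against 5.59, 4.23 and 5.25 in the dark (1.29 ± 0.41, or 0.89 without dark replicate 2). Of 18 genes of dividing cells only CDKB2;1 was measured, and it fell by 0.47 on the log2 scale. A change in tissue makeup was not tested, since most markers were not measured.

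The same comparison in WT asks whether the mutant's response is its own. WT had 2171 rises (31.7%) and 3328 falls (48.6%), 80.3% of the table, in arrays not shared with the mutant comparison. Of the mutant's calls 89.9% were made in WT in the same direction, of WT's calls 88.3% were made in the mutant, and 18 probe sets were called in opposite directions. Over all probe sets the differences of the genotypes correlated at r = 0.97, as a description. The list medians in jmj17-1 and WT were 2.04 and 2.34 for chlorophyll biosynthesis, 2.34 and 2.75 for the antenna, 1.85 and 2.15 for the photosystems, 2.13 and 1.81 for heat shock and -2.53 and -2.29 for dark growth. Other lists had medians of 0.58 and 1.00 (starch and sugars), 0.43 and 0.79 (abscisic acid), 0.41 and 0.14 (singlet oxygen) and 0.10 and -0.35 (glucosinolates). In the singlet oxygen list 12 rose and 1 fell in jmj17-1, against 8 and 5 in WT, and in the glucosinolate list 3 rose and 3 fell in jmj17-1, against 4 and 7 in WT. Without dark replicate 2 the mutant medians of the first 3 were 2.23, 2.48 and 2.12. These differences between list medians were not tested as such, and over all 31 lists 8 of the 430 measured members passed the test of the difference between genotypes.

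The genotype by light interaction, which tests that difference, was called in 78 probe sets (1.14%), of which 35 (0.511%) had a more positive difference in jmj17-1 than in WT and 43 (0.628%) a more negative one, and 1396 had an unadjusted p under 0.05. This count depended on single arrays: it was 88 without dark replicate 2, 1 without WT 8 h replicate 2, 4 without WT 8 h replicate 1 or without jmj17-1 8 h replicate 1, 7 without WT dark replicate 3, 31 without WT dark replicate 2, 137 without jmj17-1 dark replicate 3 and 205 without jmj17-1 dark replicate 1. PHI-1 (AT1G35140), a phosphate-induced gene of the extracellular matrix, held in each of the 10 such fits. It averaged 8.13 ± 0.10 at 8 h and 5.56 ± 0.10 in the dark in jmj17-1 (SD, n = 2 and n = 3), and 6.96 ± 0.01 at 8 h and 5.85 ± 0.12 in the dark in WT (SD, n = 2 and n = 3). Its rise was thus 2.57 in jmj17-1 and 1.11 in WT, and the interaction was 1.45 ± 0.14 (adjusted p = 0.000168).

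**Figure D5:**
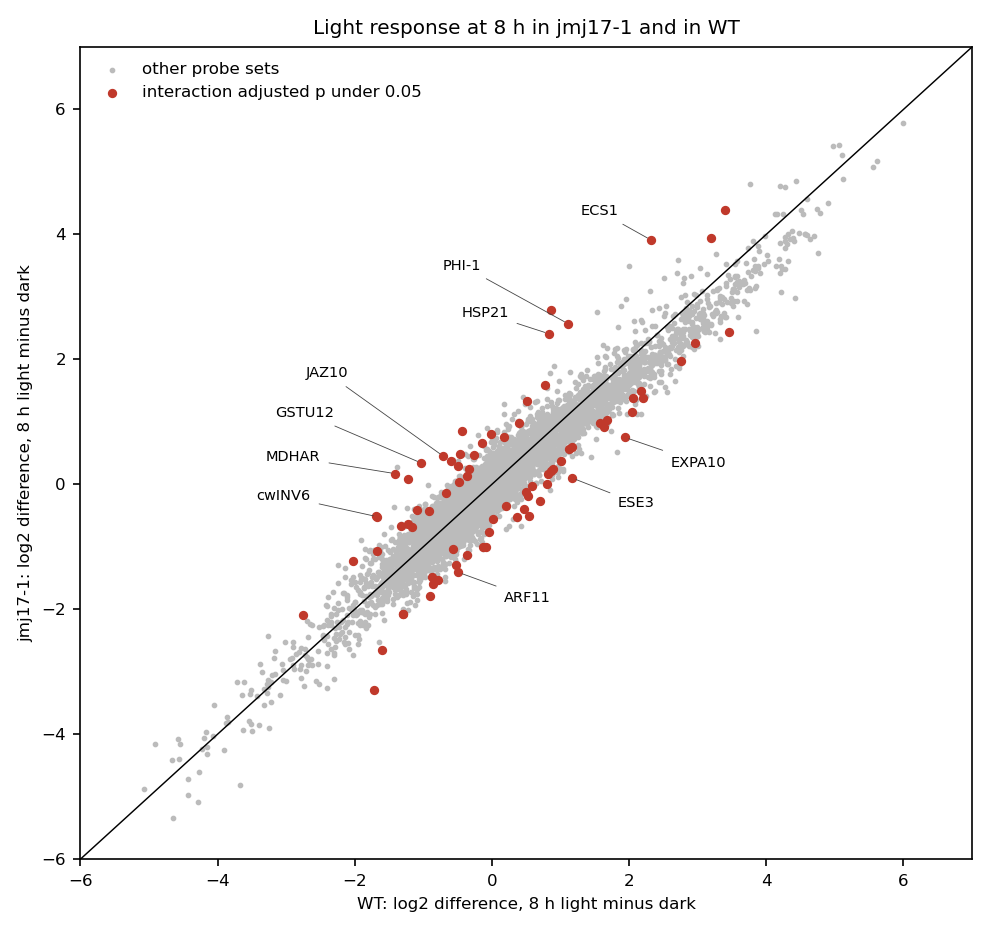
Difference between 8 h light and dark in jmj17-1 (vertical axis) against that in WT (horizontal axis), both in log2 units, 1 point per probe set with the line of equality. Red points are the 78 probe sets whose interaction passed, and the 10 largest with a gene name are labelled. PHI-1 lies at 2.57 in jmj17-1 and 1.11 in WT.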

How the data were processed

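RNA of 18 whole-seedling samples was hybridized to ATH1 arrays. The submitters' processing notes name GCOS 1.4. RMA values after quantile normalization were made by the authors per the file headers, and probe sets were then kept by a moderated t-test (p of at most 0.05, fold of at least 1.0) whose comparison is not stated, beside fold changes headed jmj17-1 dark against WT dark. The deposited intensity values are linear, cover 6847 of 22810 probe sets and run from 3.22 to 10892.5, with array medians between 144 and 161. The deposited log2 values of the same file, centred on each probe set's median, matched the log2 of these intensities within 2.0e-06. A second deposited table of centred log2 values covers all 22810 probe sets; 16 of its 18 columns equal an array of another title, so it served only as an alternative, each column taken as the array it equals. The selection went with jmj17-1 arrays that enter the fit, so adjusted p-values are not independent of it. The sources used here name no genome build, and promoter sequences were not used here.

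One mean per group was fitted to the log2 values of the 18 arrays in limma 3.58.1 (R 4.3.3), with 10 residual and 4.91 prior degrees of freedom, and adjusted by Benjamini-Hochberg over 6847 probe sets for each of 3 contrasts; the fit was tested on simulated data. The spread of groups with 2 arrays is thus pooled over all 8 groups, and labels give no batch. Of the probe sets, 6514 name 1 locus, 6513 of them found in RefSeq, and only these were named. A gene with several probe sets was read from the one with the highest mean; cross-hybridization between close paralogues was not tested. Named genes were the 15 largest rises and falls of named genes called with and without dark replicate 2 and with groups that do not overlap, list members by size, and the 10 largest interactions with any list member called there. The members and the 31 lists were chosen with earlier results of these data known. A planned list of cytosolic ribosomal protein genes matched 0 probe sets by its wording and is not described. Alternatives were other scalings, a filter on dim probe sets, array weights, a variance trend, a replicate block, the compared arrays alone, the second table and each array left out. Tables were handled in pandas 2.3.3 and NumPy 2.4.6 (Python 3.11.15), and matplotlib 3.10.9 drew the plots.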

Additional observations from a re-analysis of the deposited data

Results flagged for a closer look

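For 15 genes named here the test of the difference between genotypes in the 8 h response passed in the fit of all arrays. Chance flags some of the 6847 probe sets, and the counts of passing fits below refer to the 10 fits that each leave out 1 array. Apart from PHI-1 (1.45, in 10 of 10), each of these calls was lost in some of them. HSP21, a plastid small heat shock protein, rose by 2.41 in jmj17-1 and 0.83 in WT, an interaction of 1.58 ± 0.29 (6 of 10), and its dark mean in jmj17-1 was among the dimmest 5% of probe sets. ECS1, a cell wall protein gene, rose by 3.91 and 2.32 (interaction 1.58, 5 of 10), with 8 h means of 11.19 in jmj17-1 and 11.30 in WT and dark means of 7.28 and 8.97. MDHAR, a monodehydroascorbate reductase gene, differed by 0.17 in jmj17-1 and -1.41 in WT (1.58, 6 of 10), with 8 h means of 5.16 and 4.89 and dark means of 4.98 and 6.30. GSTU12 differed by 0.34 and -1.03 (1.37, 5 of 10) and JAZ10, a jasmonate repressor gene, by 0.45 and -0.71 (1.15, 7 of 10). For ECS1, MDHAR, GSTU12 and JAZ10 the dark means of the genotypes were farther apart than their 8 h means.

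Among growth genes, EXPA10 rose by 0.75 in jmj17-1 and 1.94 in WT (interaction -1.19, 6 of 10), EXLA1 differed by -1.07 and -1.68 (0.61, 3 of 10), GASA4 by -1.48 and -0.87 (-0.60, 5 of 10) and ARF11 by -1.41 and -0.49 (-0.93, 5 of 10). The cell wall invertase gene cwINV6 differed by -0.52 and -1.67 (1.15, 7 of 10) and the ethylene response factor gene ESE3 by 0.10 and 1.17 (-1.08, 5 of 10). RVE2, of the clock family, differed by -0.52 in jmj17-1 and 0.36 in WT (-0.88, 6 of 10), CYP707A2, which degrades abscisic acid, by 1.49 and 2.18 (-0.69, 5 of 10), and SOT17, of glucosinolate synthesis, by 0.03 and -0.48 (0.50, 2 of 10). SOT17 no longer passed without dark replicate 2 (adjusted p = 0.0621).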

How the results depend on the processing

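The 30 largest named differences kept their direction in all 377 alternatives run for them. Those genes were chosen as called with and without dark replicate 2 and with groups that do not overlap. Their stability was thus partly fixed by the choice. Over all 400 named genes, 129 of 5118 alternatives lost a call, and only the uncalled ESE3 changed sign (-0.21 without 8 h replicate 2, -0.01 without dark replicate 1 and up to 0.40 with other arrays left out). For jmj17-1 at 8 h the 5399 calls became 3348 without the dimmest 40% of probe sets, 10349 over the second table, 1816 at 2-fold or more (chosen after seeing the data), and 4903 to 5371 with 1 array left out. For WT the corresponding counts were 3472, 10362 and 5036 to 5358. The interaction was least stable: its 78 calls became 1 with the arrays compared alone, 138 with median centring (94 more positive and 44 more negative in jmj17-1), 102 with quantile normalization (60 and 42), 32 without dim probe sets, 195 with array weights, 35 over the second table and 1 to 205 with 1 array left out; the cause was not tested. Replicate numbers are not said to pair samples, and deviations of same-numbered jmj17-1 arrays correlated at 0.14 and 0.02. With the replicate block the counts were 5313 in jmj17-1, 5429 in WT and 77 for the interaction. The median difference of all probe sets was -0.19 as deposited and 0.001 over the second table. Sizes of genes in the dimmest 5% are uncertain, since the sources used here give no array background.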

Other observations

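Gene families outside the lists, grouped by their RefSeq symbols after the values had been seen, are given here as a description without a test of the family. The 13 measured nuclear genes of the chloroplast NAD(P)H dehydrogenase-like complex, which drives cyclic electron flow, all rose in jmj17-1 after 8 h of light, with a median of 3.14 (3.52 without dark replicate 2, and 3.31 in WT). PnsL3 averaged 8.86 at 8 h and 4.89 in the dark, NdhT 6.78 and 3.12, and PnsB1 10.77 and 7.19. NdhS differed least, by 0.76 ± 0.09. Of the plastid thioredoxins, which pass reducing power to carbon fixation enzymes, TRXF1, TRXF2 and TRX-M4 rose by 3.5, 2.58 and 2.15.

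Families of cell growth other than the XTH genes went the other way. All 8 measured genes with a SAUR symbol, the name of small auxin-induced genes, fell, with a median of -2.44. Of these, SAUR9 and SAUR15 also stand in the dark growth list. Measured genes of the family named by locus alone were not counted. SAUR23 averaged 6.37 at 8 h and 9.72 in the dark. Of 9 tubulin genes 8 fell, with a median of -1.17, where 47.7% of all probe sets fell. The falls included TUA4 (-1.61), TUB6 (-1.59) and TUA2 (-1.52), and TUB9 differed by -0.14 (adjusted p = 0.109). Of 19 arabinogalactan protein genes 15 fell, 1 rose and AGP1, AGP18 and AGP25 did not pass, with a median of -0.90 beside -0.19 over all probe sets. AGP4 and AGP22 differed by -3.16 and -2.09, and AGP17 rose by 2.59 ± 0.13. Of 16 homeodomain genes with an HB or HAT symbol outside the lists 13 fell, with a median of -0.89 for the 16. The falls included HB28 (-2.00), HB20 (-1.94) and HAT1 (-1.80). HB17 and HB22 of this group rose by 0.60 and 0.56. The symbols do not separate leucine zipper from zinc finger homeodomain genes. The xyloglucan-modifying XTH7 and XTH6, absent from the cell wall list, rose by 3.89 ± 0.27 and 3.36 ± 0.14, opposite to XTH15.

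Of the 15963 probe sets outside the first table, 2465 rose and 2679 fell after 8 h in jmj17-1 in the second deposited table.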
